A study of Mus musculus with 3 samples.

Results

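Exome sequencing of genomic DNA was compared between a T cell clone and a polyclonal B cell population raised from the stem cells of the same donor mouse. The T library, E6.43, came from CD4+CD8- thymic T cells of a recipient that had received 1 haematopoietic stem cell (HSC), and 250000 cells were sorted for it. The B library, E6.2, came from 58000 B220+IgM+ B cells of another recipient, given 50 HSCs. Both took their HSCs from donor animal 6. Donors were female F1 hybrids of C57BL/6 (B6, with the Ly5.2 marker) and CAST/EiJ (CAST). The recipients were sublethally irradiated female hybrids of the same strains with Ly5.1 on the B6 side, so any recipient cells left in a sort would add counts of both alleles. The T clone is clonal at the level of the HSC, and its T cells rearranged their receptor genes separately. The sample label places the B cells in the spleen, whereas the methods of the study describe bone marrow for B cells, so the tissue is not settled. The labels give no ages, and the methods describe donors of a few weeks and recipients up to young adulthood.

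The measured genes were those with at least 50 allelic counts in both libraries. An allelic count is a read over a SNP that differs between B6 and CAST, assigned to the B6 or the CAST allele. The B6 allele is called maternal and the CAST allele paternal here, as in the study's files. The study's results state that the donors had B6 mothers and CAST fathers, although its methods write the cross with CAST first. Of 30212 genes listed, 21491 reached this minimum: 20488 on autosomes, 1002 on X and 1 on Y. A further 813 genes reached it only in E6.2 and 33 only in E6.43, and 7875 reached it in neither library. The total was 19471576 allelic counts in E6.2 and 13036005 in E6.43, and an autosomal gene that reached the minimum had 571 and 402 counts at the median. A second T clone, E15.10, from 1 HSC of donor animal 15, with 10863972 counts, is given beside some results. With 1 library on each side there was no replicate error and no test was made. Every interval below covers counting error alone, and since neighbouring SNPs share reads the intervals are too narrow. Cell type, number of founder HSCs, recipient, tissue and depth all differed between the libraries and cannot be told apart.

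Each gene had 2 readouts. The allelic imbalance (AI) was the maternal fraction of its allelic counts, with a Wilson 95% interval. The share was its part of the autosomal allelic counts of the library, in CPM. The share ratio is that of the T clone (E6.43) over that of the B library (E6.2), with an exact binomial 95% interval, and its log2 is negative where the T clone had the smaller share. A ratio does not tell which of the libraries departed from the germline state.

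Lymphocytes assemble their antigen receptor genes by V(D)J recombination, in which the RAG proteins cut DNA beside V, D and J segments and the segments are joined. The DNA between joined segments is usually deleted from the chromosome as a circle, so that a lymphocyte carries fewer copies of it than its progenitor. T cells rearrange Trb, Trg, Trd and Tra, where Trd lies inside Tra between the V and J segments and is removed when Tra is rearranged. B cells rearrange Igh, then Igk or Igl. RAG recognises a recombination signal made of a heptamer, a spacer and a nonamer.

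Flanks are shown for the segment with the largest difference in each of Trd, Trb, Trg, Igh and Igk. They are also shown for *Ighj3*, the only J segment of Igh listed. The sequences were read from the RefSeq GRCm38.p6 genome, 5′ to 3′ on the strand of the segment. The capitals mark the place of the heptamer and the best matching nonamer, also where the letters fall below the limit given next:
Trdd1, upstream side, chr14:54113440-54113467, plus strand: TGTTTTTGTacggctgtgtttCACTGTG
Trdd1, downstream side, chr14:54113479-54113517, plus strand: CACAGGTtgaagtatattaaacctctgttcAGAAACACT
Trbj1-2, upstream side, chr6:41533973-41534000, plus strand: CATATTCGAgtatctgtattcTGATGTG
Tcrg-V6, downstream side, chr13:19190930-19190968, plus strand: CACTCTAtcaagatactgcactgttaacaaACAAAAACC
Igkj2, upstream side, chr6:70722877-70722915, plus strand: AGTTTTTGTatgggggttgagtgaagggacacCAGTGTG
Ighj3, upstream side, chr12:113429133-113429171, minus strand: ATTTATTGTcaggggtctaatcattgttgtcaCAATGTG
Ighd3-2, upstream side, chr12:113448230-113448257, minus strand: GGATTTTGAacaagttactgtCACAGTG
Ighd3-2, downstream side, chr12:113448186-113448213, minus strand: CACTGTAagaaaagctcaaACCAAAACT

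The letters searched were the heptamer CACAGTG with the nonamer ACAAAAACC, or CACTGTG with GGTTTTTGT on the other side of a segment, at spacers of 12 or 23 bases, give or take 1. A flank with at least 5 of 7 heptamer letters and at least 6 of 9 nonamer letters was found beside 235 of 271 V segments (86.7%), 18 of 24 J segments (75%) and 10 of 12 D flanks (83.3%). It was found beside 4 of 19814 other measured genes (0.0202%). The upstream side of *Trdd1* had 7 heptamer and 8 nonamer letters, the upstream side of *Ighd3-2* 6 and 7, and the upstream side of *Igkj2* 6 and 8. *Trbj1-2*, with 4 and 4, and *Tcrg-V6*, with 4 and 9, were below the limit. A match is a description of the letters and not of use by RAG.

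Across the genome the libraries were close. Autosomal genes had a median AI of 0.538 (B) and 0.539 (T), and the AI values of the libraries had a Pearson correlation of 0.774 across genes, which are not independent replicates. The difference in AI lay between -0.108 and 0.112 for the central 90% of genes, and the log2 share ratio between -0.38 and 0.38. A share at least 2-fold lower in the T clone was found for 45 of 20488 autosomal genes (0.22%), and one at least 2-fold higher for 38 (0.185%). Of these 83 genes (0.405%), 61 lay inside the antigen receptor loci, which hold 321 of the measured genes. Outside the loci the figure was 22 of 20167 genes (0.109%), and 19 of these 22 had under 200 counts in the shallower library. They lay on 11 autosomes, 10 of them were pseudogenes, and their log2 share ratios ran from -1.22 (*Mup15*, a major urinary protein gene) to 1.69 (*Gm13858*). The direction differed by locus: all 39 genes with lower shares inside the loci were in the T cell receptor loci, and all 22 with higher shares were in Igh and Igk. Better covered genes outside the loci included *Gm10800*, with 1750 and 2713 counts and a log2 share ratio of 1.21, and *Hs6st1*, a heparan sulphate sulphotransferase gene, with 229 and 331 counts (1.11). The SNPs of *Gm10800* amounted to 1 position at a spacing of 300 bp. Nearly all its counts were paternal (AI of 0.0229 and 0.0258), and the second T clone had 563. With at least 200 counts in both libraries, 16 of 15206 genes were 2-fold lower (0.105%) and 16 were 2-fold higher (0.105%).

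In the Tra and Trd region of chromosome 14, the T clone had smaller shares for 74 of 77 measured genes, with a median log2 share ratio of -0.72, and 20 of the 77 (26.0%) were at least 2-fold lower, against 0.22% of all autosomal genes. The largest difference was in *Trdd1* (ENSMUSG00000096749), a D segment of Trd at chr14:54113468-54113478, whose 11 bases are ATGGCATATCA. It had 136 counts in the B library and 4 in the T clone, or 7.19 and 0.316 CPM, and 1 count in the second T clone. *Trdd1* was therefore almost absent from both T libraries and present in the B library, at a share ratio of 0.0439 (0.0118 to 0.115). Because it had under 50 counts in the T clone it is not among the measured genes, and all its counts came from 1 SNP. *Trdc*, the constant gene of Trd, was not among the genes listed.

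The V segments used by the delta chain were also lower in the T clone. *Trdv4* had 394 counts in the B library and 60 in the T clone, a log2 share ratio of -2.14. The 3 *Trdv* segments together had a share ratio of 0.371 (0.338 to 0.407). Among V segments named for use by both alpha and delta chains, *Trav6-7-dv9* had 2903 and 532 counts (-1.87) and *Trav13-4-dv7* a log2 share ratio of -1.66. The alpha segments showed a weaker difference of the same direction. All 9 measured *Traj* segments were lower, and the 17 listed had a summed ratio of 0.488 (0.457 to 0.520). Of the 61 measured *Trav* segments 59 were lower, and the 71 listed had a summed ratio of 0.594 (0.585 to 0.603). The constant gene *Trac*, which lies beyond the J segments and is kept after rearrangement, had 86 and 64 counts and a ratio of 1.11, with an interval of 0.791 to 1.55 that includes 1. All counts of *Trac* came from 1 SNP. In the second T clone *Trac* had 22 counts and a ratio to the B library of 0.455.

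The difference at V segments was graded with distance from the J cluster. Within 0.5 Mb of *Traj53* the median log2 share ratio of 16 V segments, the 3 *Trdv* segments included, was -1.16, and 12 were at least 2-fold lower. It was -0.73 for the 24 V segments at 0.5 to 1 Mb, -0.49 for the 19 at 1 to 1.5 Mb and -0.22 for the 5 beyond. By these medians the shares in the T clone were thus smallest in the bin nearest to the J cluster. Single segments did not follow the grade evenly. *Trav19*, 317 kb from *Traj53*, was at -0.73, and *Trav6-7-dv9*, 452 kb away, was at -1.87. *Trav1*, the farthest, was at -0.59. Neighbouring segments are not independent observations.

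At Trb on chromosome 6, every one of the 31 measured genes had a smaller share in the T clone, with a median log2 share ratio of -1.11, and 19 (61.3%) were at least 2-fold lower. The J segment *Trbj1-2* (ENSMUSG00000076484), at chr6:41534001-41534048, had 338 counts in the B library, 28 in the T clone and 12 in the second T clone, with a ratio of 0.124 (0.0809 to 0.182). The constant gene *Trbc1* had 98 and 14 counts, a ratio of 0.213 (0.112 to 0.375), whereas *Trbc2*, the constant gene of the second cluster, had 293 and 103 counts and a log2 share ratio of -0.93. *Trbj1-5*, also of the first cluster, was at -1.57 on the log2 scale. Within the second cluster, *Trbj2-3* was at -1.55, *Trbj2-5* at -1.34 and *Trbj2-4* at -1.26, but *Trbj2-7* was at -0.26 on the log2 scale.

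The clearest block in Trb was made of genes that are not receptor segments. The trypsinogens, digestive protease precursors of the pancreas, lie between *Trbv30* and the D and J segments. All 9 listed were at least 2-fold lower in the T clone, with 9263 counts in the B library and 1851 in the T clone, or 490 and 146 CPM. The summed ratio was 0.298 (0.284 to 0.313), and the members ran from -2.20 (*Prss2*) to -1.44 on the log2 scale. The V segment *Trbv30*, next to them, was at -1.98. The 17 listed V segments on the far side of the trypsinogens, *Trbv30* included, had a summed ratio of 0.552 (0.532 to 0.573). The 14 measured ones were all lower, from -1.98 to -0.24 on the log2 scale. *Trbv31*, which lies beyond the constant genes in inverted orientation and is joined by inversion, had 1059 and 496 counts and a ratio of 0.699 (0.627 to 0.778).

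The alleles of the trypsinogen block differed in size of the change. The maternal share ratio was 0.348 (0.328 to 0.368) and the paternal one 0.201 (0.181 to 0.223), so that the AI of the summed block was 0.663 in the B library and 0.773 in the T clone. *Prss2* moved from 290 maternal and 212 paternal counts, an AI of 0.578 (0.534 to 0.620), to 59 and 14 counts, an AI of 0.808 (0.703 to 0.882). *Try4* moved from an AI of 0.572 (0.550 to 0.594) with 1936 counts to 0.755 (0.709 to 0.796) with 372. Its AI in the second T clone was 0.751. Both libraries of T cells therefore had a higher maternal fraction at *Try4* than the B library. The *Trbv* segments differed the other way, with a maternal ratio of 0.519 (0.494 to 0.545) and a paternal ratio of 0.60 (0.567 to 0.635). For *Trav* the ratios were 0.606 (0.595 to 0.617) and 0.571 (0.556 to 0.586), and for *Traj* the intervals of both alleles overlapped.

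At Trg, which encodes the gamma chain, only 1 segment stood apart. *Tcrg-V6* (ENSMUSG00000076746), at chr13:19190356-19190929, had 357 counts in the B library, 20 in the T clone and 14 in the second T clone. Its share was low in both T libraries, with a ratio of 0.0836 (0.0504 to 0.131) between the T clone and the B library. It too was under 50 counts in the T clone. The 9 other listed genes of the locus had a summed ratio of 0.919 (0.872 to 0.969), from a log2 share ratio of -0.71 for *Tcrg-C3* to 0.27 for *Tcrg-V3*, and none of the 9 measured genes in the region was 2-fold lower or higher. All counts of *Tcrg-V6* fell within 300 bp, so that they amount to 1 independent position.

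At Igh on chromosome 12 the direction was opposite, with smaller shares in the B library. Of 106 measured genes, 76 had the higher share in the T clone and 19 (17.9%) were at least 2-fold higher, against 0.185% of all autosomal genes. *Ighd3-2* (ENSMUSG00000094552), at chr12:113448214-113448229, had 7 counts in the B library, 61 in the T clone and 36 in the second T clone, and *Ighd2-8* had 33, 112 and 69. The B library was the lowest of the libraries at both D segments, although it was the deepest. The 6 listed *Ighd* segments together had 61 and 218 counts and a ratio of 5.33 (4.0 to 7.20). None of the 6 reached 50 counts in both libraries. Over all listed Igh segments the summed ratio to the B library was 1.13 for the T clone but 0.551 for the second T clone, so the locus as a whole had no common direction in T cells.

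The only J segment listed, *Ighj3* (ENSMUSG00000076619) at chr12:113429085-113429132, had 102 counts in the B library, 197 in the T clone and 171 in the second T clone, and a ratio of 2.88 (2.26 to 3.70). *Adam6a* and *Adam6b*, genes of the ADAM metalloprotease family that lie between the V and D segments, had 851 and 1484 counts and a ratio of 2.60 (2.39 to 2.83). Of the 17 measured V segments of families 2 and 5, which lie nearest to the D segments, all 17 were higher in the T clone and 14 at least 2-fold. The 18 listed had a summed ratio of 2.16 (2.10 to 2.23). In the second T clone the ratio to the B library was 1.56 for *Adam6a* and *Adam6b* and 1.03 for these V segments. Relative to genes within 2 Mb of the locus it was 0.927 and 0.612. The share of these V segments there was thus near that of the B library, but family 1 had a ratio of 0.361. Families 2 and 5 therefore stood above family 1 in that clone too. Among segments of families 2 and 5 with at least 200 counts in both libraries, 3 led in the T clone of donor 6. These were *Ighv5-6* (249 and 483 counts), *Ighv5-4* (213 and 392) and *Ighv2-4* (389 and 701), at 1.53, 1.46 and 1.43 on the log2 scale. Family 1, which extends to the far end of the locus, showed 22 V segments lower and 24 higher and a summed ratio of 0.989 (0.978 to 1.00). The 6 listed constant genes, which are kept after V(D)J recombination, had a summed ratio of 0.937 (0.912 to 0.962), and 3 of the 5 measured were higher. *Ighm*, the constant gene of IgM, had 49 and 56 counts, under the minimum in the B library, and a ratio of 1.71, whose interval excludes 1.

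Distance from the J segment graded the Igh differences, as it did in Tra. The median log2 share ratio was 1.12 for 18 V segments within 0.5 Mb of *Ighj3*, 14 of them at least 2-fold higher. It was 0.66 at 0.5 to 1 Mb, 0.09 at 1 to 1.5 Mb, 0.05 at 1.5 to 2 Mb, -0.09 at 2 to 2.5 Mb and -0.10 for the 3 beyond. Past 1 Mb the median V segment thus had a near equal total share in both libraries. The alleles were less even. At 1 to 1.5 Mb the summed maternal ratio was 1.24 and the paternal 0.960, and over family 1 they were 1.05 and 0.897. The lowest V segment in the T clone was *Ighv1-71*, at -0.95.

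The light chain loci differed less. At Igk the J segments *Igkj2* and its neighbour had 353 counts in the B library and 646 in the T clone, a ratio of 2.73 (2.39 to 3.12), and *Igkj2* alone had 239 and 468. *Igkc*, the constant gene, had 52 and 83 counts and a ratio of 2.38 (1.66 to 3.44). The J and C genes were thus higher in the T clone and the V segments were not. The 90 listed *Igkv* segments had a summed ratio of 0.949 (0.939 to 0.959), none of the 87 measured was 2-fold different, and the medians stood at -0.11, -0.10, -0.03 and -0.22 in successive bins of 1 Mb from *Igkj2*. At Igl the 3 listed genes had 946 and 592 counts and a ratio of 0.934 (0.841 to 1.04), which includes 1.

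**Figure D1:**
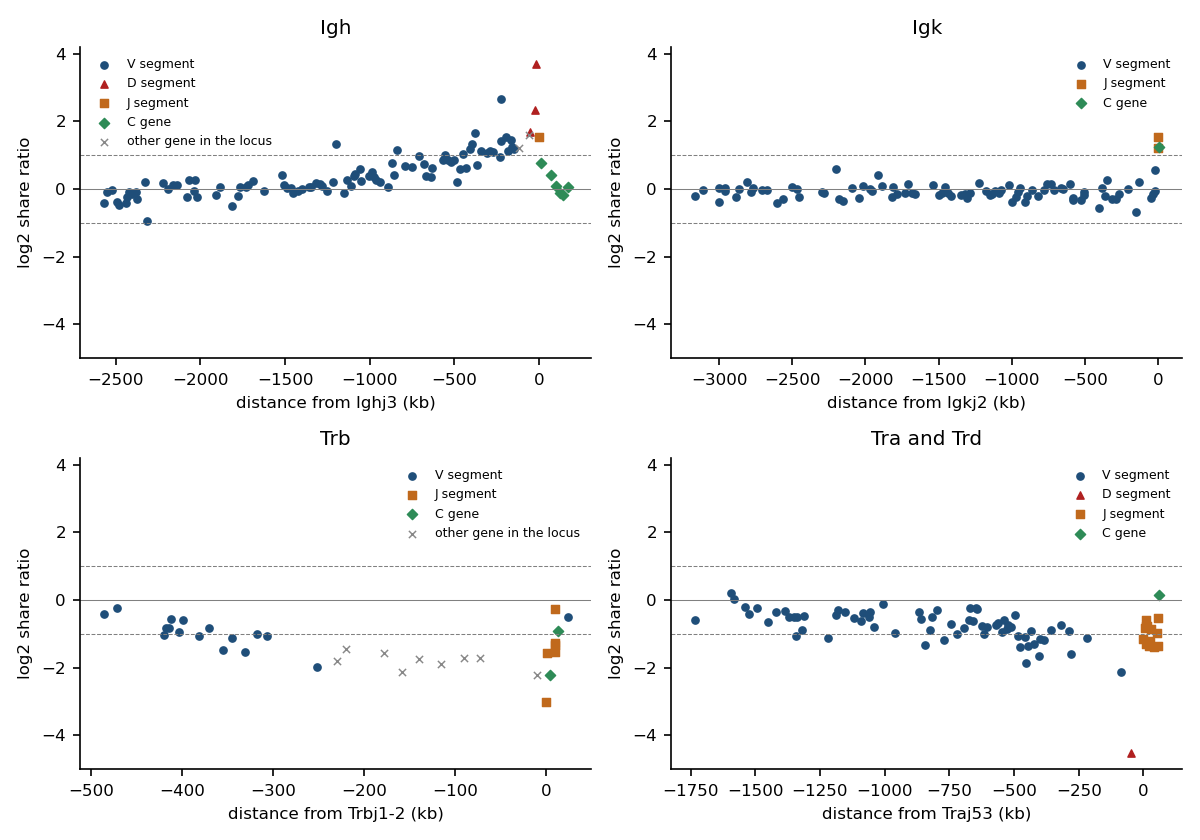
Log2 share ratio (E6.43 over E6.2) of each listed gene with at least 50 counts in both libraries together, against its distance in kb from a J segment, in 4 receptor loci. Dashed lines mark a 2-fold difference: Igh segments rise above the line towards *Ighj3*, Tra and Trb segments fall under it, and *Igkv* segments lie near 0.

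**Figure D2:**
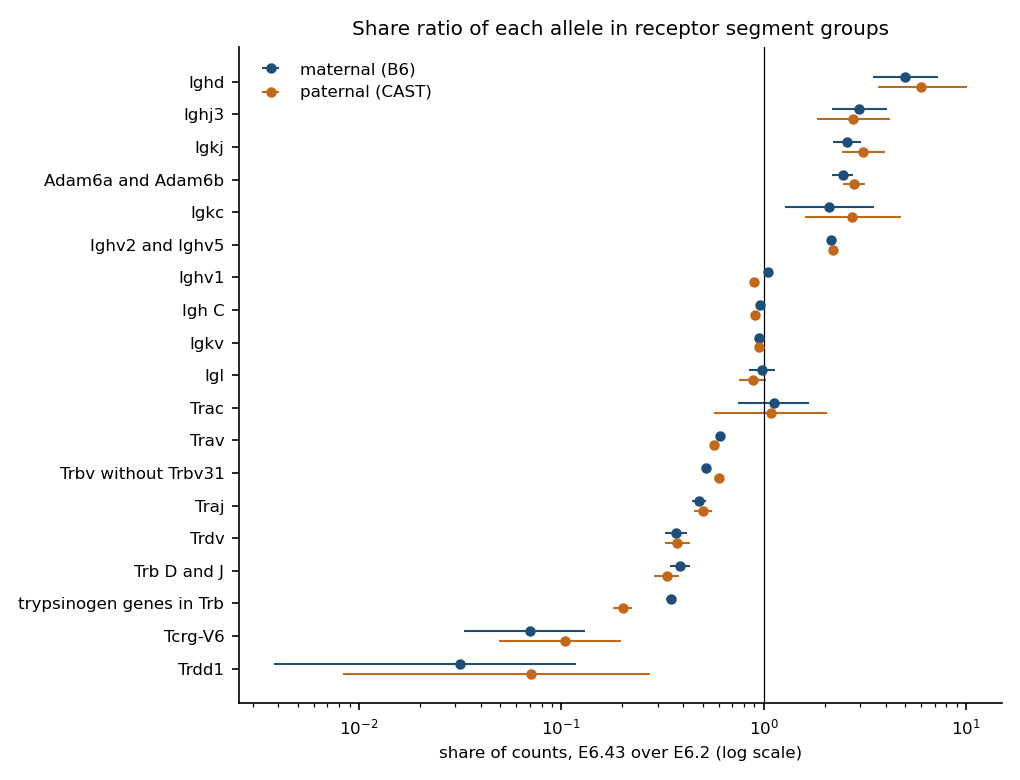
Share ratio of the maternal and paternal counts in groups of receptor segments, on a log axis, with exact 95% intervals that cover counting error. Both alleles lie on the same side of 1 in the groups with the largest differences, and the trypsinogen genes have ratios of 0.348 and 0.201.

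The labelled cell types were set against these loci, since DNA carries no expression. The T library had the smaller shares of *Trdd1*, *Trdv*, *Traj* and *Trbj* segments and the B library the smaller shares of *Ighd*, *Ighj* and *Igkj* segments. Each library thus had the smaller share of D and J segments at loci that its labelled cell type rearranges, and whether rearrangement gave the differences was not tested. Both alleles lay on the same side of 1 in each of these groups: for *Ighd* the maternal ratio was 5.0 (3.49 to 7.31) and the paternal 5.97 (3.67 to 10.1), and for *Trdv* 0.368 (0.325 to 0.416) and 0.375 (0.324 to 0.431). Genes that are expressed by these cells but not rearranged served as the comparison. The 10 listed, among them *Ptprc*, *Rag1*, *Rag2*, *Dntt*, *Cd4*, *Cd8a*, *Cd3e*, *Cd79a* and *Pax5*, were all measured, and log2 share ratios ran from -0.27 (*Ptprc*) to 0.23 (*Pax5*). No gene of the 10 met either the share criterion, met by 0.405% of all autosomal genes, or the AI criterion described below, met by 1.43%, and a count of 0 among 10 genes is near that background. *Rag1*, the recombinase gene, had 3052 and 2031 counts, with AI of 0.514 and 0.525. *Ptprc*, which encodes the Ly5 antigen, had AI of 0.741 in the B library and 0.774 in the T clone, above the autosomal median in both.

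Genes often mutated in clonal blood disorders were examined for loss of an allele. Of 12 listed, 11 were measured. AI differences ran from -0.101 for *Dnmt3a*, a DNA methyltransferase (0.565 with 246 counts in the B library, 0.464 with 153 in the T clone), to 0.0766 for *Nf1*, a Ras regulator (0.544 with 1834 counts, 0.621 with 1358). *Tet2*, a DNA demethylase, had AI of 0.524 and 0.515 with 4230 and 2618 counts. *Trp53* had 0.537 and 0.587 with 216 and 138 counts. Log2 share ratios ran from -0.63 (*Ikzf1*, a lymphoid transcription factor with 247 and 107 counts) to 0.32 (*Notch1*). No gene of the 11 met either criterion. Only 1.43% of all autosomal genes met the AI criterion and 0.405% the share criterion, so a count of 0 among so few genes says little.

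Gene by gene, AI differed by at least 0.2 with disjoint intervals in 294 of 20488 autosomal genes (1.43%). It was higher in the T clone in 146 (0.713%) and lower in 148 (0.722%), so that neither direction prevailed. Depth moved with the count. Of 1933 genes with 50 to 100 counts in the shallower library, 150 met the criterion (7.76%), and the standard deviation of the AI difference over genes was 0.119, where counting alone gives 0.0728. Of 5451 genes with 400 to 800 counts, 8 met it (0.147%). Of the 4036 genes with 800 to 2000 counts and the 812 with more, none did. In this best covered class the standard deviation was 0.0294. At least 200 counts in both libraries left 42 of 15206 genes (0.276%), 19 of them higher (0.125%) and 23 lower (0.151%).

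Gene class and the number of SNP positions also moved with the count. The criterion was met by 87 of 1906 pseudogenes (4.56%), 9 of 110 small RNA genes (8.18%) and 160 of 17068 protein-coding genes (0.937%). Among genes whose SNPs all lay within 300 bp it was met by 96 of 2229 (4.31%), and among genes with at least 3 positions 300 bp apart by 141 of 15733 (0.896%). Positions were counted over all listed SNPs, whatever their coverage. In 273 of the 294 genes, the maternal and paternal shares moved in opposite directions between the libraries. This largely follows from the criterion, because a large AI difference at a similar total share moves the alleles apart. The log2 share ratio was within 0.5 in size for 95.6% of autosomal genes. Opposite movement was not counted over all autosomal genes. The study kept uniquely aligned reads. The part of gene class, depth and SNP number in these differences was not tested.

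**Figure D3:**
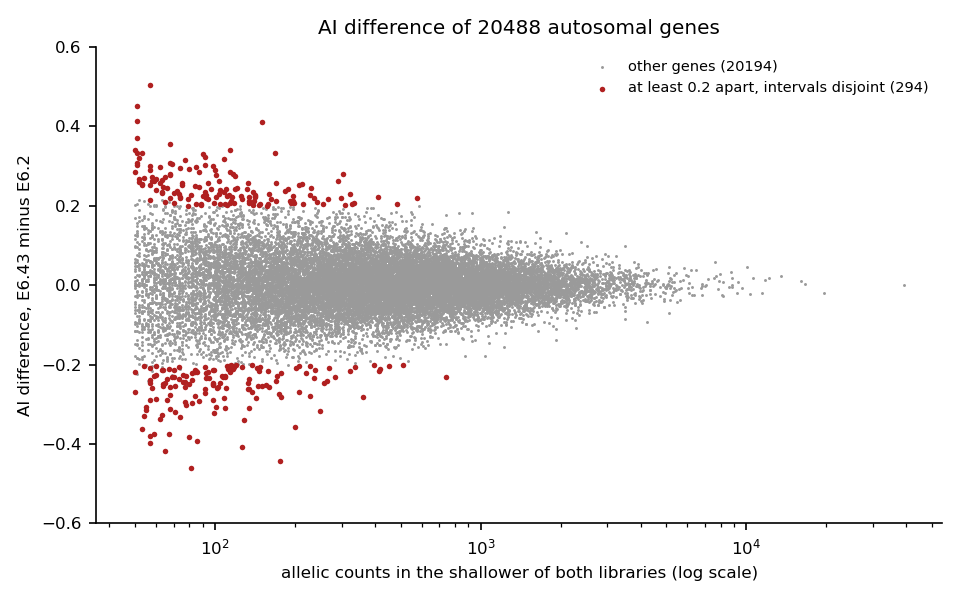
AI difference, E6.43 minus E6.2, of 20488 autosomal genes against the allelic counts in the shallower library, on a log axis. The 294 genes at least 0.2 apart with disjoint intervals (red) lie mostly at low counts, and none has 800 or more.

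Among genes with at least 200 counts in both libraries, the largest shift towards the paternal allele was in *Gm17031* (ENSMUSG00000091442), a processed pseudogene at chr12:106508242-106509910. With SNPs at least 300 bp apart its AI difference of -0.357 became -0.185, smaller than those of *1700069L16Rik* (-0.309) and *Frs2* (-0.292), and 8 of its 10 SNPs with at least 10 counts in both libraries moved with the gene. It had 225 maternal and 126 paternal counts in the B library and 57 and 144 in the T clone. The maternal majority in the B library was thus a paternal majority in the T clone, with AI of 0.641 (0.590 to 0.689) and 0.284 (0.226 to 0.349), and an AI of 0.481 in the second T clone. *Trav13-3*, a V pseudogene of Tra, moved from 639 and 371 counts to 127 and 234, an AI of 0.633 against 0.352, and was also lower in share (log2 share ratio -0.91). Its share ratio was 0.297 for the maternal and 0.941 for the paternal counts, so that the maternal allele carried nearly the whole difference. The second T clone had an AI of 0.419 there.

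Protein-coding genes in the same direction were *1700069L16Rik* (283 and 115 counts in the B library, 98 and 150 in the T clone), *2700081O15Rik* (220 and 103, then 92 and 137), *Frs2*, an adaptor of fibroblast growth factor receptors (186 and 90, then 84 and 123), *Krt90*, a keratin (274 and 158, then 104 and 160, but an AI difference of -0.0822 in place of -0.240 with spaced SNPs), and *Yaf2*, a partner of Polycomb proteins (249 and 143, then 95 and 141). *Gm7102* completed the 8 with the largest shift, at 203 and 55, then 155 and 132, with a log2 share ratio of 0.73. The share ratios of the others stayed near 1: *Frs2* was at 1.12 (0.930 to 1.34) and *1700069L16Rik* at 0.930 (0.790 to 1.09). For *Frs2* and *1700069L16Rik* the AI of the second T clone, 0.717 and 0.728, was near that of the B library.

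In the opposite direction, *Gm11575* (ENSMUSG00000081562), a processed pseudogene at chr1:60522839-60523066, had 150 maternal and 247 paternal counts in the B library and 199 and 104 in the T clone. Its AI was 0.378 (0.332 to 0.426) and 0.657 (0.602 to 0.708), with 0.370 in the second T clone, so that only the T clone of donor 6 had a maternal majority among the 3 libraries. Protein-coding genes were *Uhrf2* (ENSMUSG00000024817), a ubiquitin ligase that binds modified DNA at chr19:30030513-30093722 (339 and 309 counts, then 307 and 105), and *Fam168b* (150 and 218, then 150 and 80). *Uhrf2* had an AI of 0.523 (0.485 to 0.561) in the B library and 0.745 (0.701 to 0.785) in the T clone, at a share ratio of 0.949 (0.836 to 1.08). It held 14 SNP positions at least 300 bp apart, counted over its 31 listed SNPs whatever their coverage. Only 12 of these SNPs had at least 10 counts in both libraries, and 9 of the 12 moved with the gene. The others included the pseudogenes *Rpl19-ps4*, *Vmn1r-ps26* and *Gm11424* and the antisense gene *Gm15756*. With spaced SNPs the AI difference of *Rpl19-ps4* went from 0.229 to 0.0464 and that of *Vmn1r-ps26* from 0.226 to 0.131. In 13 of the 16 genes every SNP with at least 10 counts in both libraries moved the same way. However, 9 of the 16 held no more than 2 positions at least 300 bp apart, even with poorly covered SNPs counted.

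The methods of the study excluded genes whose AI in exome data was under 0.25 or over 0.75. Genes that lay in this range in the T clone, and at an AI of 0.4 to 0.6 in the B library, numbered 44 (0.215% of autosomal genes). The reverse held for 17 (0.083%). Of the 44, 33 had AI over 0.75, and 25 had under 100 counts in the shallower library. In the second T clone, 40 of 43 with at least 10 counts were outside the range. The 44 were picked for extreme AI in the T clone and balanced AI in the B library. How many of all autosomal genes lay outside the range in the second T clone was not counted. The 40 of 43 therefore cannot tell whether the extreme AI was particular to the T clone of donor 6. *Vat1*, a vesicle amine transport gene, had 102 maternal and 107 paternal counts in the B library and 138 and 30 in the T clone, with AI of 0.488 and 0.821. The small RNA gene *Gm22826* had AI of 0.437 with 311 counts and 0.848 with 151. The *Vat1* share ratio was 1.20 (0.973 to 1.48), and the paternal share was 5.66 and 2.37 CPM. The 17 for the B library included 11 pseudogenes and 3 protein-coding genes.

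Whole autosomes differed little. The log2 ratio of summed shares ran from -0.06 for chromosome 14 to 0.03 for chromosome 12, and chromosome 6 was at -0.04. With the receptor loci left out, chromosome 14 was at -0.0038, chromosome 12 at 0.00052 and chromosome 6 at -0.02, and the range over the 19 autosomes was -0.03 to 0.03. The AI of the summed counts of an autosome differed by -0.00397 to 0.00414. The median log2 share ratio of the autosomes went with the mean GC content around their SNPs (Pearson's r of 0.901 over 19 autosomes that share the same libraries), and GC content went weakly with the ratio of single genes (r of 0.290). The part of GC in the ratios was not tested apart from the alternative that takes it off. The X chromosome, present as a pair in these females, took 2.88% of all counts in the B library and 2.77% in the T clone, with median AI of 0.523 and 0.526.

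Running medians over 51 genes were used to look for longer stretches. A window was listed where the median log2 share ratio reached 0.3 in size, and 3 were found. The window on chromosome 6 ran from *1700074P13Rik* to *Kel* (chr6:40920729-41704255, lowest median -0.59) and holds Trb. That on chromosome 12 ran from *Ighg2c* to *Ighv10-3* (chr12:113285939-114523884, 0.76) and holds the near end of Igh. That on chromosome 14 ran from *Trav2* to *Traj2* (chr14:52567320-54217842, -0.84) and holds Tra and Trd. With windows of 25 genes, and with the GC medians taken off, the same loci were listed. With wider windows the loci on chromosomes 12 and 14 were listed and that on chromosome 6 was not. With the receptor loci left out, the running median stayed between -0.19 and 0.26.

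No window reached an AI difference of 0.1. The running median lay between -0.04 at *Traj32* and 0.06 at *Ighv1-16*. A stretch in which 1 library alone had lost or doubled an allele over 51 genes was therefore not seen. Shorter stretches, or losses in a small part of the cells, could not be detected in this way.

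**Figure D4:**
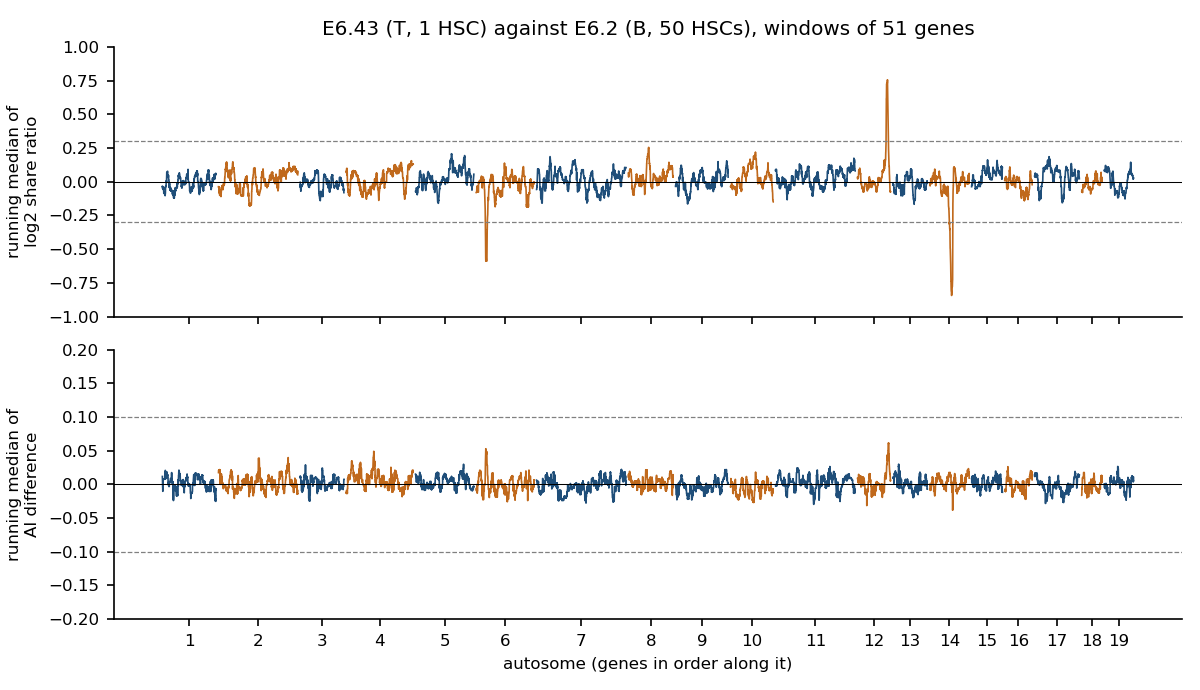
Running medians over 51 genes of the log2 share ratio (top) and of the AI difference (bottom), E6.43 against E6.2, with genes in order along the 19 autosomes. The share ratio passes the dashed lines at 0.3 in size at 3 places, on chromosomes 6, 12 and 14, and the AI difference stays within 0.1.

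The libraries shared a stretch of chromosome 7 with few maternal counts, found from the AI of these data, so that its low AI is a description. It ran from *Catsperg2* to *E130304I02Rik* (chr7:29697646-35802648, 6.11 Mb) and held 111 measured genes of 157 listed. In the B library, 2809 of 85051 counts were maternal, or 3.30% (3.18 to 3.42). In the T clone, 547 of 59037 were maternal, or 0.927% (0.852 to 1.01). In the second T clone, from the other donor, the maternal percentage was 53.9%. The B library thus had the larger maternal percentage in the stretch. Donor cells and any recipient cells left in the sort cannot be told apart in these counts.

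The difference was spread along the stretch. The maternal percentage was higher in the B library in 106 genes, lower in 1 and equal in 4, with a median gene at 2.59% in the B library and 0% in the T clone. No maternal count was seen in 5 genes in the B library and in 67 in the T clone. *Cd22*, a B cell surface inhibitor, had 77 maternal of 2594 counts in the B library (2.97%) and 0 of 1757 in the T clone, which allows a share of up to 0.171%. *Dpy19l3* had 2.71% and 0.118%, and *Wdr62*, a centrosomal protein gene, 1.69% and 0.122%. These well covered genes had several percent or less in the B library and close to none in the clone.

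A few genes kept maternal counts in both libraries. *Sbsn*, an epidermal gene with the most counts in the stretch, had 7.57% and 5.91%, and *Psenen*, a gamma-secretase subunit gene, had 36.8% and 30.9%. Of the 547 maternal counts of the T clone in the stretch, 313 were in *Sbsn* and 79 in *Psenen*. In the B library they held 543 and 168 of 2809. Most of the 0.927% in the T clone thus came from *Sbsn* and *Psenen*. The largest differences were in ENSMUSG00000095967 (16.4% and 1.36%), *Gm10169* (9.71% and 0%) and *Scgb2b26* (9.68% and 0.916%).

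The share of counts in the stretch was much alike in both libraries, at 4498 CPM in the B library and 4659 CPM in the T clone, whereas the second T clone had 7444 CPM. The 75 genes within 2 Mb on either side had 3812, 3963 and 5741 CPM. Relative to these flanks the stretch stood at 1.18 in both libraries of donor 6 and at 1.30 in the second T clone. Between the libraries of donor 6 the summed share ratio was 1.04 (1.02 to 1.05) in the stretch and 1.04 in the flanks, which tells nothing of a loss of DNA that both would share. Summed over the stretch, *Sbsn* and *Psenen* included, the maternal share was 3.44-fold higher in the B library, and the paternal share ratio was 1.06. A fold without *Sbsn* and *Psenen* was not computed. In the flanks the median AI was 0.543 in the B library and 0.525 in the T clone. The paternal share of the stretch was 1.27 times that of the second T clone in the B library and 1.34 times in the T clone. The flanks themselves stood at 0.664 and 0.690 of the second T clone, so relative to flanks these paternal ratios would be larger. The number of copies in the stretch was not tested.

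**Figure D5:**
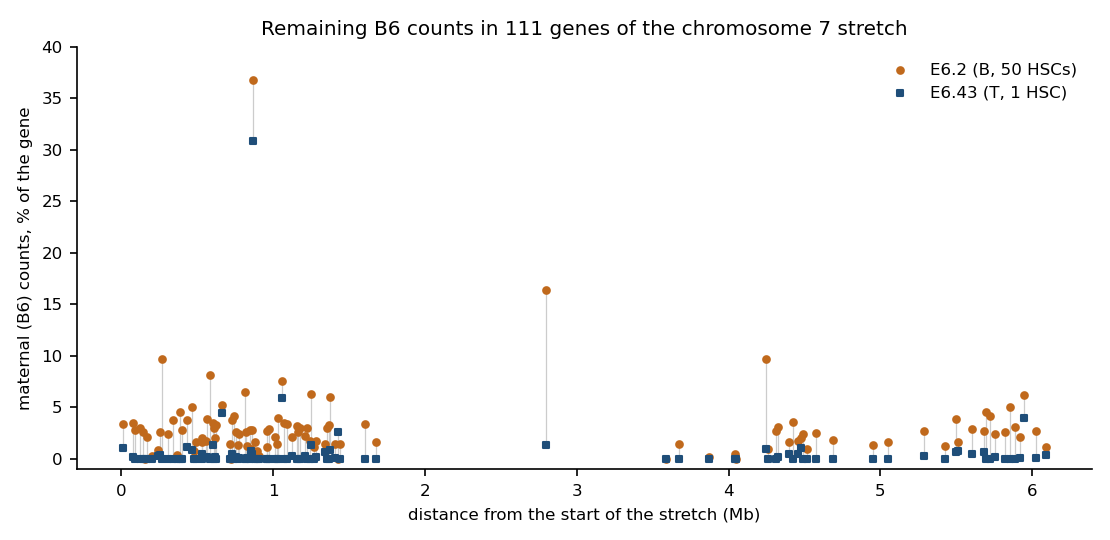
Maternal counts as a percentage of each gene's allelic counts in 111 genes, against the distance in Mb from the start of the chromosome 7 stretch, with the values of the libraries joined by a line. E6.2 lies above E6.43 in 106 genes, and *Psenen* is the only gene over 25% in either.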

How the data were processed

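Exome libraries of genomic DNA were made with a capture kit. Per the labels, the authors' processing used Trim Galore, cutadapt 1.14, STAR 2.5.4a, SAMtools and GATK on GRCm38 (mm10). The authors deposited maternal and paternal allelic counts per SNP and per gene for each library, which were used as deposited. The whole-series table also holds the authors' AI estimates, intervals and calls, which were not used. Its counts served as an alternative, at a minimum of 90. For all 19800 genes with both libraries in it, the totals were the same as in the counts per library. Symbols and gene spans came from GENCODE M21 (29309 of 30212 identifiers matched) and sequences from RefSeq GRCm38.p6. AI, shares and intervals were computed with Python 3.11.15, numpy 2.4.6, scipy 1.17.1 and pandas 2.3.3, and the scripts were tested on simulated data. The GC content was taken 100 bp to either side of each SNP.

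Genes were named by rule: the 8 with the largest AI difference and the 8 with the largest share difference in each direction at 200 counts or more, lists of lymphoid and clonal blood genes, the extremes of each receptor locus and of the chromosome 7 stretch, and the ends of windows. *Vat1*, *Gm22826*, *Mup15*, *Gm13858*, *Hs6st1* and further genes and segments of the receptor loci were named after their values were seen. The same holds for *Vmn2r-ps124*, *Gm16001*, *Fos*, *Il17a* and *Clec1a* under the other observations. The genes and lists were chosen with earlier results of these data known. Some genes that the rule names are not reported here.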

Additional observations from a re-analysis of the deposited data

How the results depend on the processing

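The number of genes with different AI was 294. It was 42 with a minimum of 200 counts, 120 with SNPs at least 300 bp apart, 160 in protein-coding genes, 171 from the whole-series table, 151 with intervals for the fewer independent reads, and 1434 and 50 at AI differences of 0.1 and 0.3. The number of genes with a 2-fold share difference was 83, and became 248 with a minimum of 10, 32 with 200, 50 with spaced SNPs, 20 in protein-coding genes, 529 at 1.5-fold and 22 with the receptor loci left out. Genes with AI under 0.25 or over 0.75 in E6.43 alone changed from 44 to 132 with a minimum of 10, 9 with 200, 9 with spaced SNPs, 16 in protein-coding genes and 21 from the whole-series table, and those of E6.2 alone from 17 to 53, 5, 4, 3 and 11. The log2 ratio of chromosome 6 became -0.030 as a median, -0.014 after GC medians and -0.022 without receptor loci. That of chromosome 12 became 0.013, 0.0091 and 0.00052, and that of chromosome 14 -0.025, -0.018 and -0.0038. The summed share ratio of Tra was 0.588, with 0.621 at spaced SNPs, 0.60 against flanks and 0.334 for E15.10 in place of E6.43. For Trb it was 0.527, with 0.465, 0.562 and 0.238. For Igh it was 1.13, with 1.17, 1.05 and, reversed, 0.551 for E15.10. Igk moved from 0.956 to 0.944 with spaced SNPs and 0.356 for E15.10, Trg from 0.846 to 0.538 and Igl from 0.934 to 0.269 for E15.10. The direction of the Igh sum thus did not hold with the other T clone. Unrearranged flanks of these loci also differed in share there, and the cause was not tested. The maternal percentage of the chromosome 7 stretch became 2.78% (B) and 0.618% (T) with spaced SNPs, and 2.59% and 0% for the median gene. Of 112 alternatives over 32 named genes, 103 stayed within the interval, 9 left it in the same direction and 0 reversed. Alternatives from the whole-series table could hardly leave the interval, since its totals were the same. Centring on the median gene could hardly do so either, since it moved every ratio by the same small amount. The tally therefore overstates how far the named genes were tried. Named genes that fell under an AI difference of 0.2 in size with spaced SNPs included *Krt90* (-0.0822), *Rpl19-ps4* (0.0464), *Gm17031* (-0.185), *Vmn1r-ps26* (0.131) and *Fam168b* (0.192). Leaving out the receptor loci was chosen after seeing the data. No paired analysis was possible because each side had 1 library.

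Depth limits the single genes, since 42 of the 294 had at least 200 counts in both libraries. The deposited counts held 1.97 reads in E6.2 and 1.95 in E6.43 for each count at spaced SNPs.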

Other observations

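Some genes had few counts in 1 library only and so entered no count above. *Vmn2r-ps124*, a vomeronasal receptor pseudogene, had 14 counts in the B library, 84 in the T clone and 6 in the second T clone, with AI of 0.571, 0.964 and 0.333. *Gm16001* had 32, 93 and 108 counts, with AI of 0.219, 0.602 and 0.648. *Fos*, an immediate early gene, had 31, 66 and 45 counts. *Il17a*, a T cell cytokine gene, had 192, 48 and 84 counts, and *Clec1a*, a lectin receptor gene, 168, 42 and 24. The counting error of these values is large and no replicate was available.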
